A study of Mus musculus with 12 samples.

Results

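The clusters described here are 347 short stretches of sequence, listed from a PAR-CLIP series on the GFP-tagged protein Smchd1. Their midpoints lay in exons of nuclear protein-coding genes. Whether these clusters stand for RNA bound by Smchd1 was not tested. They were chosen from 4762 clusters in the deposited list by position and sequence copy number. The midpoint had to fall in an exon of a protein-coding gene of GENCODE M21 on either strand, the sequence had to be listed once, and mitochondrial clusters were left out. Of 424 clusters in such exons, 33 were removed because the same sequence was listed more than once. A further 44 were removed because they lay in Mki67, Apc, Ptprz1, Prrc2c or Ankrd11, genes that each held several clusters. The 347 clusters fell in 303 genes, which was 1.38% of 22010 annotated nuclear protein-coding genes. They held 9111 of the 553902 reads in the list, or 1.64% of the reads from 7.29% of the clusters.

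The series had 12 PAR-CLIP libraries, in 3 groups of 4, from neural stem cell lines of female C57BL/6 embryos at E14.5. One group was Smchd1GFP/GFP, with the tag on both copies of Smchd1, and crosslinked. Another was Smchd1GFP/GFP without crosslinking according to its titles and the design text, while its protocol field still mentions the light. The remaining group was Smchd1+/+, untagged and crosslinked. In all groups the protocol gave 100 µM 4-thiouridine for 24 h and 0.15 J/cm2 of light at 365 nm. The list gives 1 read count per cluster and no value per library. No comparison between tagged, untagged and uncrosslinked cells could therefore be made, no replicate error is known, and the sources used here do not say which libraries entered the list.

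PAR-CLIP feeds cells 4-thiouridine, which is built into new RNA, joins RNA to bound protein with long-wave ultraviolet light, and sequences the RNA that is purified with the protein. Smchd1 is a noncanonical member of the SMC family, chromosomal ATPases that include cohesin and condensin, and is known for its role in X inactivation and in silencing of imprinted and clustered genes. A mature messenger RNA consists of exons, which hold a coding sequence between a 5′ and a 3′ untranslated region (UTR). Introns are removed by splicing. A cluster on the strand of the gene has the sequence of the messenger, and a cluster on the opposite strand has its reverse complement.

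Most clusters began with the AC of a GTAC, a word that reads the same on both strands, and 4 such words each had a cluster running away from them on either side, 1 per strand. These pairs lay in coding sequence of Dst, Ncor1, Srrm2 and Sall3. The following 30-base windows of the messenger show the shared word of 3 of these pairs in capitals, 5′ to 3′ on the strand of the gene, in mm10. The Dst window is chr1:34225918-34225947 (+ strand), the Ncor1 window chr11:62343227-62343256 (- strand) and the Srrm2 window chr17:23818800-23818829 (+ strand).
Dst: tggtcaaagaggaGTACttgaaagcagaac
Ncor1: aatgctggaaattGTACcagagaacataaa
Srrm2: agggctcagagtgGTACtgattcttctcct
In each pair the gene-strand cluster began with the AC of the word and ran toward the 3′ end of the gene. The opposite-strand cluster began with the AC of the same word on the other strand and ran the other way. Reads were 57 and 39 in Dst (gene strand, then opposite), 60 and 46 in Ncor1, 63 and 28 in Srrm2 and 45 and 44 in Sall3. The gene strand held more reads in each of the 4 pairs, by 1 read in Sall3. The whole list had 38 such pairs. Dst encodes dystonin, a giant linker of the cytoskeleton. Ncor1 encodes a nuclear receptor corepressor, Srrm2 a protein of splicing speckles and Sall3 a zinc finger transcription factor.

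The next windows show the starts of leading clusters on each strand, with GTAC in capitals, 8 bases of the annotated transcript before it and the start of the cluster from AC on. They are shown because they carry the start shared by most of the clusters. On the strand of the gene these were Smc1a (chrX:152026569-152026598, + strand), Sulf2 (chr2:166094583-166094612, - strand) and Spag9 (chr11:94086313-94086342, + strand).
Smc1a: gagcacagGTACagttgcagctctttaaac
Sulf2: ctcaatgaGTACaacggctcatacgtgccg
Spag9: agaaaccaGTACaaagagaggctgatggag
On the opposite strand these were Hsp90ab1 (chr17:45570379-45570408, + strand), Sparcl1 (chr5:104093196-104093225, + strand) and Ncl (chr1:86357222-86357251, + strand), written as the cluster reads.
Hsp90ab1: tggtcaatGTACttctctttgatcttcttt
Sparcl1: gctcacttGTACcttcttgtagatccagtg
Ncl: aggagttgGTACcaacgcttttgcttgtgc

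A smaller set of clusters began with AC that did not follow GT. The 4 shown have the most reads among those in coding sequence on the opposite strand with T as the third base and no sequence shared with another listed cluster, with ACT in capitals after 10 upstream bases, and this set was chosen after its values were seen. They were Kat6a (chr8:22938670-22938699, - strand), Map4k4 (chr1:39990206-39990235, - strand), Rfc1 (chr5:65319408-65319437, + strand) and Zeb2 (chr2:44996745-44996774, + strand).
Kat6a: tattctccctACTgtcctgcatgtttgcag
Map4k4: tgcctcttatACTcctcctgctcccggagc
Rfc1: ggcctccttgACTcccttttttcctttgac
Zeb2: tggtggggttACTgttgggagctaacggct
The 1 opposite-strand cluster of this set without T as the third base lay in Sparcl1 (chr5:104092911-104092940, + strand), with ACC in capitals.
Sparcl1: cactgggggcACCaatgtcttccggctctt

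Reads per cluster were low for nearly all of the 347 clusters. The count ran from 5 to 1410, with a median of 15 and quartiles of 10 and 24. The cluster of 1410 reads lay in the 3′ UTR of Lars2, the mitochondrial leucyl-tRNA synthetase, and the next highest had 193. A count of 15 has an exact Poisson interval of 8.40 to 24.7, nearly the span between the quartiles. No molecular identifiers are reported, so intervals given here cover counting error only. Clusters were 61 to 160 bases long with a median of 85, and 328 of them (94.5%, 95% Wilson interval 91.6 to 96.5) were 83 to 86 bases long. Where the sequence could be compared with that of the annotated transcript, it was the same base for base in 290 of 290 clusters. The other 57 reached past an exon or lay on a transcript whose sequence was not used here. The sources used here do not say whether the listed sequence comes from the reads or from the reference genome. The match therefore cannot be read as a property of the reads.

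Opposite-strand clusters outnumbered those on the strand of the gene. Of the 347 clusters, 224 (64.6%, 59.4 to 69.4) were opposite and 123 had the strand of the gene. By gene, 202 genes (0.918% of all) held an opposite cluster and 122 (0.554%) a gene-strand cluster. Clusters in introns of protein-coding genes, with the sequence listed once, were split evenly: 580 of 1181 (49.1%, 46.3 to 52.0) were opposite. The odds of the opposite strand were 1.89 times higher in exons than in introns (two-sided Fisher's exact test, p = 3.7e-07, adjusted 1.1e-06 over 3 tests). The test takes clusters as independent and has no replicate libraries behind it. With Lars2 left out the opposite strand held 65.3% of the reads, and 70.7% with it. Most opposite clusters had no annotated gene of their own strand to belong to: 12 of 224 (5.36%) lay in any gene on their own strand. Of these 12, 1, with 11 reads in Hsp90b1, lay in an exon of such a gene, the pseudogene 1810014B01Rik. How the libraries and the cluster caller assign strand is not stated in the sources used here. Whether an opposite cluster stands for RNA of that strand was not tested.

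**Figure D1:**
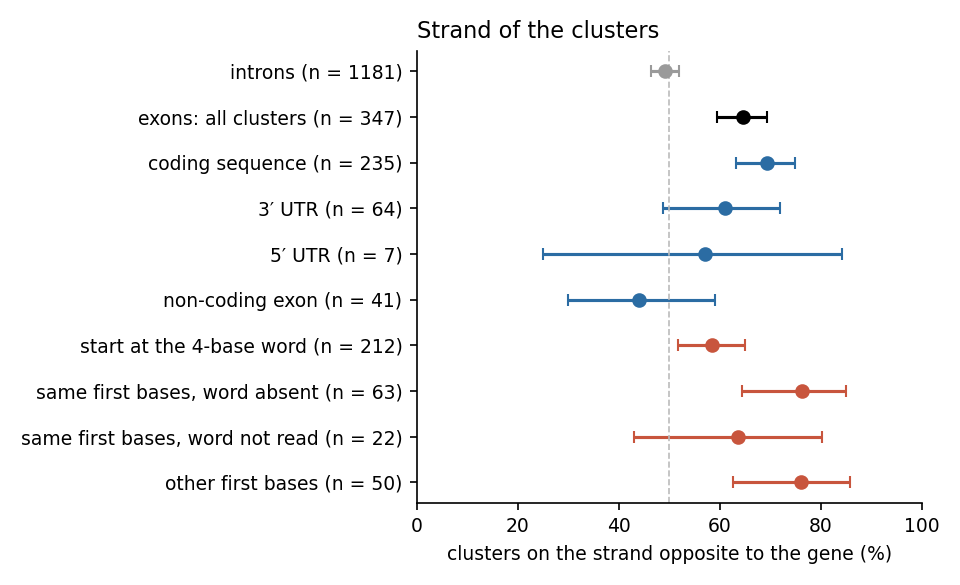
Share of clusters on the strand opposite to the gene (x axis, percent; points, with 95% Wilson intervals as bars; dashed line at 50%) for intronic clusters, for the 347 exonic clusters, and for these split by part of the gene and by how the cluster starts, where the 4-base word is GTAC. Intronic clusters sit at 49.1%, the exonic clusters at 64.6%, those in coding sequence at 69.4% and those in non-coding exons at 43.9%.

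Medians of reads per cluster lay close together on the strands. The gene-strand clusters had 5 to 193 reads with a median of 14 (quartiles 10 and 22.5). Opposite clusters had 5 to 1410 with a median of 16 (quartiles 10 and 25). Intronic clusters had a median of 13 (quartiles 9 and 18), and their highest count was 43217. The 3 sets shared the range from 5 to 193 reads, and their quartiles overlapped.

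**Figure D2:**
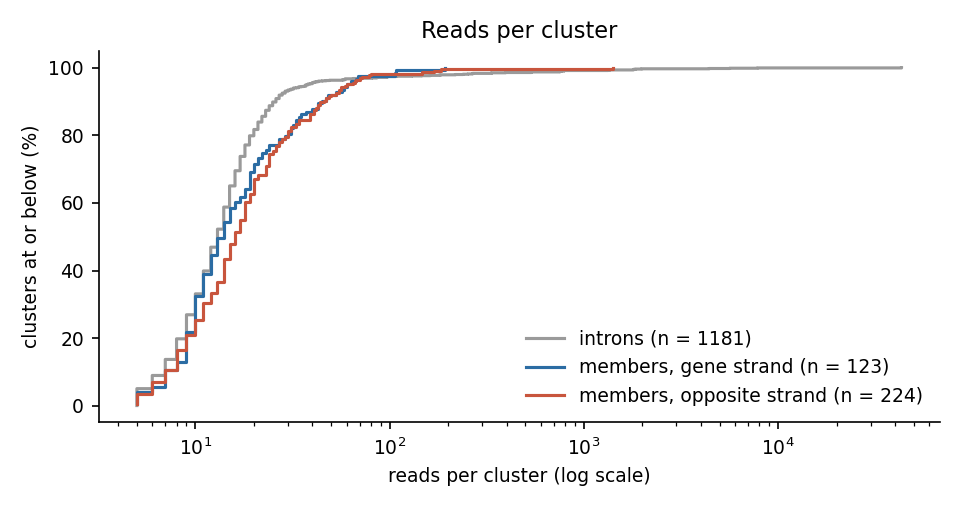
Cumulative share of clusters (y axis) by reads per cluster (x axis, log scale) for intronic clusters and for exonic clusters on the strand of the gene and on the opposite strand. The 3 curves run close together, with medians of 13, 14 and 16 reads.

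Coding sequence held most of the exonic clusters. A cluster was called coding where the midpoint lay in the coding sequence of any transcript, and a non-coding exon is one that belongs only to transcripts of the gene without an annotated coding sequence, such as retained-intron transcripts. By this rule 235 of 347 (67.7%, 62.6 to 72.4) were coding, against 37.5% of annotated exonic bases and 39.5% of GTAC words in exons. The 3′ UTRs held 64 (18.4%, 14.7 to 22.9), against 34.9% of bases and 35.3% of GTAC words. The 5′ UTRs held 7 (2.02%, 0.981 to 4.10), against 7.39% of bases and 4.73% of GTAC words. Non-coding exons held 41 (11.8%, 8.83 to 15.6), against 20.2% of bases and 20.5% of GTAC words. Coding sequence thus held more clusters than its share of bases and of GTAC words, and each of the other 3 classes fewer. How strongly each gene was transcribed in these cells was not measured, so these shares are not adjusted for RNA level.

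**Figure D3:**
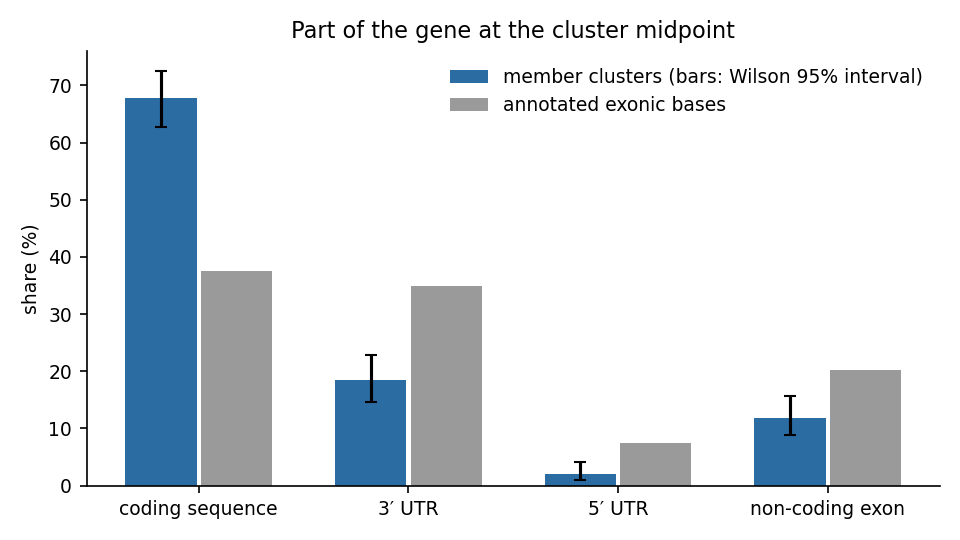
Share of the 347 clusters (with 95% Wilson intervals) and share of annotated exonic bases (y axis, percent) in coding sequence, 3′ UTR, 5′ UTR and non-coding exons. Coding sequence holds 67.7% of clusters and 37.5% of bases, and 3′ UTRs hold 18.4% and 34.9%.

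The strand split varied with the part of the gene. Opposite clusters made up 163 of 235 in coding sequence (69.4%, 63.2 to 74.9) and 39 of 64 in 3′ UTRs (60.9%, 48.7 to 71.9). In non-coding exons they were 18 of 41 (43.9%, 29.9 to 59.0), and in 5′ UTRs 4 of 7. The difference between coding sequence and 3′ UTR did not pass the test (odds ratio 1.45, two-sided Fisher's exact test, p = 0.229, adjusted 0.229). Median reads were 18 in coding sequence, 15 in 3′ UTRs and 11 in non-coding exons.

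The 3′ UTR clusters with the most reads after Lars2 lay in Ptn and Ntrk3. Ptn, which encodes the growth factor pleiotrophin, had 67 reads on the opposite strand. Ntrk3, which encodes the neurotrophin-3 receptor, had 47 reads on its own strand, in an exon of 16786 bases. The 7 clusters in 5′ UTRs were all small, with 6 to 19 reads. The largest of them lay in Tnc with 19 reads on the opposite strand, followed by Vmn1r184 with 15 and Olfr131 with 12, both opposite. Pdcl had 10 reads, Elovl5, a fatty acid elongase, 9 and Mettl7b 9, each on the strand of the gene. Igf2bp3, which encodes an RNA-binding protein, had 6 on the opposite strand and falls outside the rule for naming genes; it is named to complete the 7. Of clusters in non-coding exons, the one in Ankrd17 stood highest, with 80 reads on the opposite strand.

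Median exon length was close to that of annotated bases within coding sequence, 3′ UTRs and non-coding exons. Each cluster was given the length of the longest annotated exon at its midpoint. The median was 769 bases (quartiles 196.5 and 2720), from 63 bases in Pot1a, a telomere-binding protein, to 20587 in Flg2, and these genes are named after their values were seen. For annotated exonic bases the median was 1469. Exons of at least 1000 bases held 158 clusters (45.5%, 40.4 to 50.8), against 57.9% of exonic bases. Within coding sequence, however, the median was 283 against 303 for coding bases, and 73 of 235 clusters (31.1%, 25.5 to 37.2) lay in exons of at least 1000 bases against 30.9% of coding bases. Within 3′ UTRs the median was 2784 against 2872, and within non-coding exons 1897 against 1937. The upper quartile in non-coding exons was 3709 against 3106. Within 5′ UTRs the median was 548 against 370, from 7 clusters. The lower overall median thus went with the larger share of coding sequence, whose exons are shorter.

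**Figure D4:**
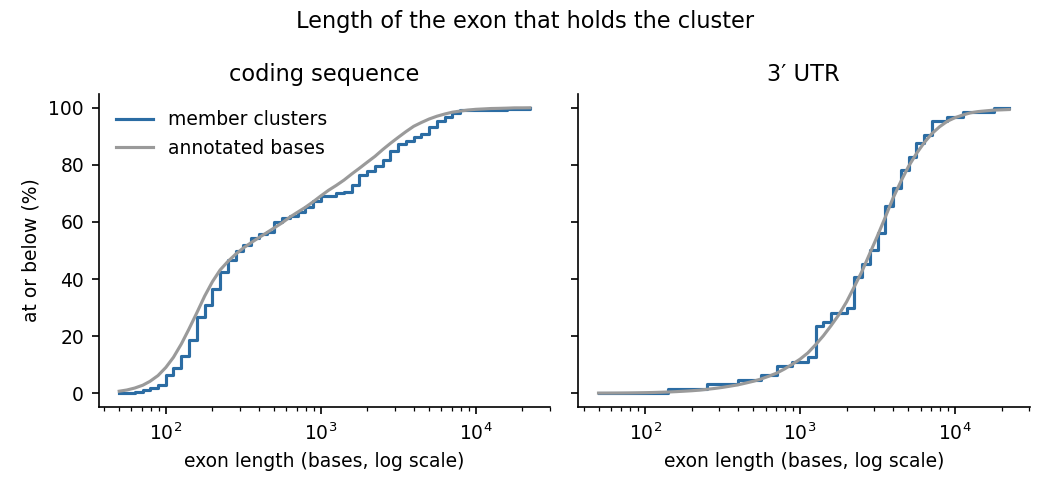
Cumulative share (y axis) by length of the exon (x axis, bases, log scale) for clusters and for annotated bases, in coding sequence and in 3′ UTRs. In each panel the curve of the clusters runs close to that of the bases, with medians of 283 and 303 in coding sequence and 2784 and 2872 in 3′ UTRs.

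Some clusters ran across an exon's edge, and the one in 4933403O08Rik ran past the end of its gene. Of 347 clusters, 292 (84.1%) lay whole in 1 exon and 55 (15.9%, 12.4 to 20.1) reached past it by 1 to 44 bases, with a median of 24. Exon ends were then counted where the overhang was long enough to read, and a cluster past both ends counted at each. Of 28 downstream ends, 26 had GT, the usual start of an intron, just past them on the strand of the gene. Of 27 upstream ends, 23 had AG, the usual end of an intron, just before them. Clusters that reached past an exon included those of Hsp90b1 (193 reads), Tpr (72), Spag9 (69) and Dst (57). The opposite strand held 32 of these 55 (58.2%, 45.0 to 70.3) and 192 of the 292 (65.8%, 60.1 to 71.0), and the intervals overlapped.

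Clusters were spread along transcripts, and no share of annotated bases was set beside the positions given here. The median position was 0.463 of the transcript's length from its 5′ end (quartiles 0.248 and 0.648), and the median distance to the 3′ end was 2492 bases. By strand the median position was 0.488 for gene-strand clusters (quartiles 0.248 and 0.687) and 0.435 for opposite clusters (0.246 and 0.613). The last exon held 118 of 345 placed clusters (34.2%), a count that includes 10 on single-exon transcripts. The first exon of transcripts with more than 1 exon held 16.

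The 12 gene-strand clusters with the most reads lay in 12 genes of varied function. Hsp90b1, the HSP90 chaperone of the endoplasmic reticulum, had 193 reads (exact Poisson interval 167 to 222). Smc1a, a subunit of cohesin, had 108 (88.6 to 130). Sulf2, an enzyme that trims heparan sulfate outside the cell, had 107 (87.7 to 129). These 3 stood above the rest of their strand, since the next, Spag9, a scaffold of JNK signalling, had 69 (53.7 to 87.3). The kinesin Kif1b had 67, and Srrm2 63 and Ncor1 60 as given above. Nrip1, another nuclear receptor corepressor, had 58, followed by Dst with 57. Scd2, a stearoyl-CoA desaturase, had 53, the kinase Map4k4 48, and Ntrk3 47. The intervals of Smc1a and Sulf2 overlapped, and so did those of neighbours from Spag9 down, so the order within each set cannot be read.

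On the opposite strand the 12 leading clusters lay in 11 genes. Lars2 had 1410 reads (1337 to 1486) over chr9:123462036-123462172, in the 3′ UTR. That sequence shares at least 30 bases in a row with an intronic cluster of 1982 reads on chr16:35981673-35981772, so its reads are uncertain. Hsp90ab1, the cytosolic HSP90, had 185 (159 to 214) and 65 in separate clusters. Sparcl1, a secreted matrix protein of glia, had 169 (144 to 196) and Ncl, which encodes nucleolin, 146 (123 to 172). Ankrd17 had 80 and Gm10800, a predicted gene that shares sequence with other places in the list, 78. Tpr of the nuclear pore basket had 72, the PI3-kinase regulatory subunit Pik3r1 70 and Ptn 67. The acetyltransferases Crebbp and Kat6a had 66 and 60. The intervals of Hsp90ab1, Sparcl1 and Ncl overlapped, as did those of neighbours from Ankrd17 down, so the order within each set cannot be read. Besides Lars2 and 2 clusters of Gm10800, 1 cluster of Hspa8 shared sequence with listed clusters elsewhere, and the reads of all these are uncertain for that reason. The 2 clusters of Tbc1d15 and 1 of Ergic2 shared sequence only with a cluster that overlapped them on the other strand. In those the shared sequence comes from the overlap and shows no second copy. Together 7 clusters shared sequence with another listed cluster.

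Most genes held a single cluster. Of 303 genes, 274 had 1 and 29 had more, with 73 clusters in those 29. Both strands were present in 21 of the 29, the opposite strand alone in 8 and the strand of the gene alone in 0.

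Among the genes with 3 or 4 clusters were the pair of HSP90 chaperones. Hsp90ab1 had 3 opposite clusters of 185, 55 and 65 reads in exons 6, 7 and 9, 305 reads in all. Hsp90b1 had 4 clusters with 256 reads, of which the one of 193 in exon 7 was on its own strand and those of 43, 11 and 9 were opposite. In Smc1a 108 reads lay on its own strand in exon 5 and 44, 8 and 59 on the opposite strand in exons 4, 7 and 16. Ncl had opposite clusters of 146 and 41 reads around a gene-strand cluster of 10. In each of these 4 genes every cluster lay in coding sequence, and the opposite strand held more clusters.

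Dst had 57 reads on its own strand and 56, 39 and 11 opposite. Scd2 was even by strand, with 53 and 18 reads on its own strand in coding sequence and 14 and 20 opposite, the last of them in the 3′ UTR. Srrm2 had 63 on its own strand and 28 and 7 opposite, all in exon 11. Akap12, a scaffold for protein kinase A, had 42, 13, 17 and 9 reads, all opposite and all in exon 3. Tnc, which encodes tenascin-C, an extracellular matrix protein of neural stem cell niches, had 21 reads on its own strand and 20, 19 and 18 opposite. The clusters of Tnc had nearly equal counts, whereas those of Smc1a spanned 8 to 108.

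**Figure D5:**
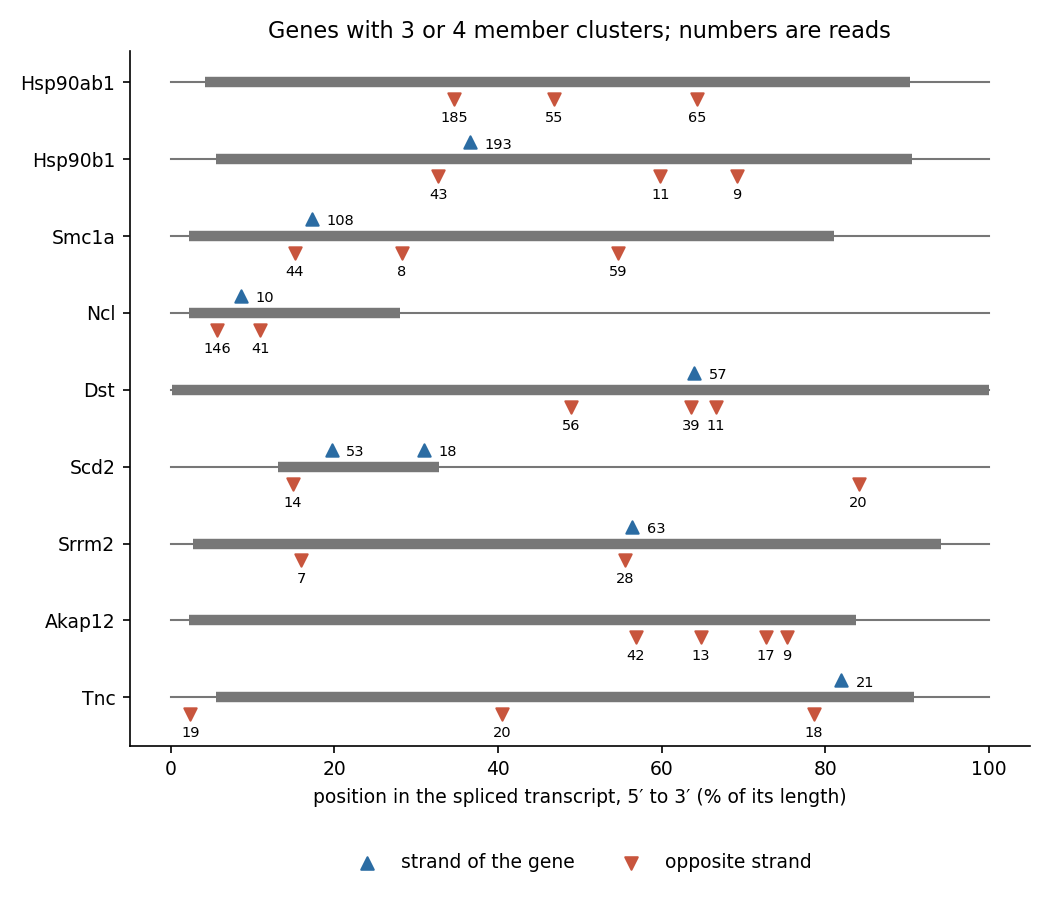
Clusters along the spliced transcript (x axis, percent of its length, 5′ to 3′) in the 9 genes with 3 or 4 clusters; the thick bar is coding sequence, upward triangles are on the strand of the gene, downward triangles opposite, and numbers are reads. Clusters lie in coding sequence except 1 in the 3′ UTR of Scd2 (20 reads) and 1 in the 5′ UTR of Tnc (19 reads).

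Genes with 2 clusters and many reads were Sparcl1 with 169 and 23 reads, both opposite, and Sulf2 with 107 on its own strand and 33 opposite. Ankrd17 had 80 opposite and 29 on its own strand, and Ncor1 60 on its own strand and 46 opposite. In Map4k4 the opposite cluster had 55 reads and the one on its own strand 48, and Crebbp had 66 and 31 likewise. Eif3a, a subunit of translation initiation factor eIF3, had 50 and 41, both opposite. Sall3 had 45 on its own strand and 44 opposite, and Gm10800 9 and 78. Map2, a microtubule-associated protein of dendrites, had 47 and 25, both opposite. Trip12, a ubiquitin ligase, had 43 on its own strand and 29 opposite.

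By function, the genes were described with 25 lists drawn up with earlier results of these data known. Counts stand beside the 1.38% of all genes that held a cluster, and clusters per Mb of exon beside 3.56 over all genes, since long genes offer more sequence. No test of the lists was made. Of the 25 lists, 17 had a share above 1.38%, so a raised share was common to most of them. Of the 303 genes, 68 (22.4%, 18.1 to 27.5) were in any list.

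Chromatin remodellers and histone modifiers had the most genes with a cluster, 14 of 121 (11.6%), with 17 clusters, 7 on the strand of the gene and 10 opposite. Their rate was 14.4 clusters per Mb and their median 19 reads, against 15 over all 347. Crebbp had 97 reads in all and Kat6a 65. Chd4, the helicase of the NuRD complex, had 49 reads opposite and 7 on its own strand. Kmt2b, a histone H3 lysine methyltransferase, had 31 on its own strand. Of the SMC complexes, to which cohesin and condensin belong, 1 of 21 genes had clusters, namely Smc1a with its 4. The list of mitosis and spindle genes had 3 of 32, each with 1 opposite cluster: Ckap5 with 30 reads, Akap9 with 20 and Cep290 with 12. Ckap5 promotes microtubule growth, and Akap9 and Cep290 are proteins of the centrosome.

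Extracellular matrix and adhesion genes had 9 of 124 (7.26%) with 14 clusters, 4 on the strand of the gene and 10 opposite, at 14.51 per Mb with a median of 19.5 reads. After Sparcl1 with 192 reads in all and Tnc with 78 came Fat1, a giant cadherin, with 31 and 13 opposite, and Cdh13, a cadherin anchored by lipid, with 40 on its own strand. Clustered protocadherins, where Smchd1 is known to act, had 1 of 56 genes with a cluster, Pcdhgb6 with 25 reads on the opposite strand. That gene lies in a family of near copies, so its reads are uncertain.

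Cytoskeletal lists had intermediate shares. Actin, myosin, spectrin and filamin genes had 5 of 77 (6.49%) at 12.4 clusters per Mb, with Dst, beta-actin (Actb, 32 reads on its own strand), Macf1 (17, opposite) and the adhesion protein vinculin (Vcl, 15, opposite). Tubulin, kinesin and dynein genes had 4 of 84 (4.76%) at 6.18 per Mb, with Kif1b, the dynein heavy chain Dync1h1 (33 reads) and Kif5b (17) on their own strand and Kif27 (18) opposite. Proteasome and ubiquitin ligase genes had 5 of 127 (3.94%) at 6.92 per Mb, with Trip12, Huwe1 (30, opposite), Usp14 (16, opposite) and Mycbp2 (14, opposite).

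In RNA and protein synthesis, translation factors had 4 of 68 genes (5.88%) with 5 clusters, 1 on the strand of the gene and 4 opposite, at 17.01 per Mb. Eif3a led with 91 reads, followed by Eif4g3 with 27 opposite, Eef1a1 with 23 on its own strand and Eif2b1 with 20 opposite. Eef1a1 belongs to a family with many processed copies, so its count is uncertain. RNA helicases had 3 of 53 (5.66%): Dhx29 with 23 reads opposite, and Dhx38 with 10 and Ddx1 with 7 on their own strand. Splicing and hnRNP genes had 2 of 114 (1.75%), Srrm2 with 98 reads in all and U2af2 with 5 opposite. Cytoplasmic ribosomal proteins, whose messengers are abundant in growing cells, had 2 of 83 (2.41%), Rps19 with 12 reads and Rpl22l1 with 5, both in non-coding exons, at 11.5 clusters per Mb. The chaperone list had 4 of 79 (5.06%), with Hspa8 at 15 reads, Hspa9 and Dnajc13 at 10 each and Cct2 at 9. The pattern that defined it did not take in the HSP90 genes.

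The share of genes with a cluster was near or below the background in 2 large families. Zinc finger proteins had 4 of 394 (1.02%) at 2.01 per Mb: Zfp979 with 15 reads, Zfp442 with 12, Zfp882 with 11 and Zfp804a with 5. Solute carriers had 5 of 371 (1.35%) at 2.75 per Mb, led by Slc35b2 with 22 reads, Slc1a3 with 15, Slc4a7 with 13 and Slc7a14 with 11. The 2 lists hold 1.99 and 1.82 Mb of exon, the longest totals among the lists.

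The cell-type lists are short, so 1 or 2 genes set their shares. Of 19 neural stem cell markers 2 had a cluster (10.5%, at 48.2 clusters per Mb, the highest rate of the 25 lists, from 5 clusters of which 4 lay in Tnc), Tnc and the glutamate transporter Slc1a3 (15 reads on its own strand, in a non-coding exon). Of 15 neuron markers 1 did (6.67%, at 19.7 per Mb), namely Map2 with 2 clusters. Of 10 astrocyte markers 1 did (10%, at 17.6 per Mb), the gap junction protein Gja1 with 7 reads opposite. Of 10 fibroblast and endothelial markers 1 did (10%, at 13.6 per Mb), fibronectin (Fn1) with 11 reads opposite. Of 10 oligodendrocyte markers and 10 markers of microglia and blood 0 had one. The remaining 17 neural stem cell markers had no cluster of this kind, and the label of the cells could not be checked further from this list. Glycolysis genes (0 of 17), proteins of X inactivation (0 of 18), imprinted genes (0 of 35) and Hox genes (0 of 39) also had none. At the mean rate of 3.56 clusters per Mb these 6 lists with 0 would have held 0.146 to 0.835 clusters each, so a count of 0 could not be told from the mean rate.

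X-linked exons held a share of clusters close to their share of bases. Of the 347 clusters, 12 (3.46%, 1.99 to 5.95) lay on the X, against 3.35% of exonic bases. They lay in 9 genes with 365 reads, of which Smc1a had 219. The other X-linked clusters had 8 to 30 reads, in Huwe1, Taf1, Ercc6l, Cmc4, Shroom4, Uba1, Fam50a and 4933403O08Rik, listed after their values were seen. Of the 12, 10 were opposite (83.3%, 55.2 to 95.3), an interval that includes the 64.6% of all exonic clusters. The sequence gives no way to say which X a read came from. Across the assembled chromosomes with a cluster the rate ran from 2.43 clusters per exonic Mb on chromosome 3 to 6.36 on chromosome 10, with 3.68 on the X.

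The start of the clusters was regular in sequence. A cluster began with AC in 297 of 347 cases (85.6%, 81.5 to 88.9), against 1059 of 1181 intronic clusters (89.7%, 87.8 to 91.3). This difference did not pass the test after adjustment (odds ratio 0.684, two-sided Fisher's exact test, p = 0.0421, adjusted 0.0631). By the same exact test it passed with adjusted p = 0.0259 when the 5 omitted genes were kept, 0.00703 with basic transcripts alone and 5.1e-05 with clusters that shared no 30-base word with another. It did not pass with adjusted p = 0.167 for 1 cluster per gene, 0.354 for clusters of 10 or more reads and 0.524 for whole clusters inside 1 exon, by the same exact test. GT stood just before the AC in 212 of 275 clusters whose upstream bases could be read from the transcript (77.1%, 71.8 to 81.7). In the annotated transcripts as a whole, 4.05% of AC words on the strand of the gene and 4.19% on the other followed GT. The word GTAC was found inside 1 of the 347 clusters, whereas 16.3% of all 85-base windows of these transcripts hold it. Where the next GTAC downstream could be placed in the transcript, it lay 111 to 2238 bases away with a median of 291 over 187 clusters, and in 0 of them at under 100 bases. Among all neighbouring GTAC words in the transcripts 23.9% were under 100 bases apart and the median was 258. A cluster without GTAC inside cannot have the next one within its own length. These distances thus largely repeat the count of clusters with GTAC inside and are no separate result.

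Starts differed between the strands. GT preceded the AC in 88 of 103 gene-strand clusters (85.4%, 77.4 to 91.0) and in 124 of 172 opposite clusters (72.1%, 64.96 to 78.3). Seen from the start, 124 of 212 clusters with AC after GT were opposite (58.5%, 51.8 to 64.9), against 48 of 63 with AC not after GT (76.2%, 64.4 to 85.01). The odds ratio was 2.27 (two-sided Fisher's exact test, p = 0.0117), a comparison chosen after the values were seen. Exonic clusters with AC after GT held a larger opposite share than intronic clusters of any start (odds ratio 1.46, two-sided Fisher's exact test, adjusted p = 0.0206). The bases before intronic clusters were not read, so the introns could not be matched by start.

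The clusters with AC not after GT, like those of Kat6a, Map4k4, Rfc1 and Zeb2 shown above, nearly always had T as the third base. It was T in 59 of 63 (93.7%, 84.8 to 97.5), and in 47 of 48 on the opposite strand. In AC after GT it was T in 106 of 212 (50%, 43.3 to 56.7). Of AC words not after GT in the transcripts, 28.2% on the strand of the gene and 28.9% on the other are followed by T. The 50 clusters with another start were mostly in coding sequence, 46 of 50 (92.0%, 81.2 to 96.8), and 38 of 50 were opposite (76.0%, 62.6 to 85.7). The leading clusters of Hsp90b1, Lars2 and Tpr were among them. What sets these starts was not tested.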

How the data were processed

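PAR-CLIP was done on 12 libraries, and 1 list of clusters covers the series. It gives the count of reads in each cluster, deposited by the authors with position, strand and sequence and, per the file headers, with no column per library, and 0 value columns were left unmapped. The submitters' processing notes name bcl2fastq, TopHat2 2.1.0 and mm10. For the cluster caller, its thresholds and strand handling nothing is stated in the sources used here. Clusters were placed on GENCODE M21 by their midpoint, with coding sequence taking precedence over UTRs and non-coding exons. Shares carry 95% Wilson intervals, counts exact Poisson intervals, and 3 two-sided Fisher's exact tests were adjusted by Benjamini-Hochberg (Python 3.11.15, SciPy 1.17.1, pandas 2.3.3). Fisher's exact test was run on simulated counts of independent clusters, sized like the comparison of exons with introns. Dependence between clusters was not simulated. The members and the 25 lists were chosen with earlier results of these data known. Named were the 12 clusters with most reads per strand, genes with 2 or more clusters up to 20, the 4 leading genes of each list, up to 6 clusters in 5′ UTRs and the strand pairs. Alternatives numbered 6, and 1 more was added after the values were seen.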

Additional observations from a re-analysis of the deposited data

How the results depend on the processing

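No paired analysis was possible because the list carries no library columns, and for the same reason no replicate could be left out. Under the 6 alternatives 43 values kept their direction and their side of the threshold or moved by less than their interval. Coding sequence held 77.3% of clusters when exons of basic transcripts alone were used, a set with fewer non-coding exons. Exons of at least 1000 bases held 53.1% when the whole cluster had to lie in 1 exon, a rule that removes short exons. The odds ratio of an AC start against introns went from 0.684 to 0.661 with the 5 omitted genes kept, 0.585 with basic transcripts and 0.433 with clusters sharing no 30-base word, and passed in each; the cause was not tested. It was 0.725 with 1 cluster per gene, 0.774 with 10 or more reads and 0.874 with whole clusters in 1 exon, and passed in none of these 3. Over all alternatives the odds ratio of the opposite strand against introns ran from 1.46 to 2.15 and passed in each. An alternative added after seeing the data, exonic clusters that begin with AC after GT alone, lowered the opposite share to 58.5%. In it the intronic clusters were not restricted by start. Low counts, with a median of 15 reads, limit any ranking of genes.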

Other observations

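Olfactory and vomeronasal receptors, large families of chemosensory receptors read mainly in sensory neurons, had clusters in 7 of 1481 genes (0.473%, 0.229 to 0.972), against 1.38% of all genes, at 1.46 clusters per Mb of exon. This family was chosen after the gene names were seen. The 8 clusters had 6 to 16 reads, 5 were opposite, and 7 of the 8 lay outside coding sequence. Vmn2r60 had 14 reads opposite and 11 on its own strand, Olfr414 16 and Olfr52 12 on their own strand. These receptors are near copies of one another, so their reads are uncertain.

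Genes with an exonic cluster held intronic clusters in 42 of 303 cases (13.9%, 10.4 to 18.2), against 968 of all 22010 genes (4.398%), a total that includes the 303. Their exons are also longer in sum, with a median of 8178 exonic bases against 3489.5 over all genes. Whether gene length accounts for the difference was not tested. Opcml, a cell adhesion molecule of neurons named after its value was seen, had the most, with 4 intronic clusters beside 1 exonic cluster of 21 reads on the opposite strand.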
